A study of Mus musculus with 70 samples.

Results

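Voluntary wheel running was given for 14 days, and hippocampal transcription was then compared between mice trained directly afterwards (14-0-0) and mice trained after a further 7 days without a wheel (14-7-0). The 20 libraries were chosen by their group labels alone, 10 per group, out of 70 libraries in 7 groups, and each group held 5 libraries from each of 2 harvest cohorts. All 20 mice were adult male C57BL/6J animals, had run for 14 days, were housed singly and had the 3-min subthreshold acquisition session of the object location memory (OLM) task 1 h before the dorsal hippocampus was taken. The groups differed in the sedentary delay, 0 days or 7 days, and therefore also in the time since running began, and neither group is free of running or of training. In 14-0-0 the wheels came out the night before training, while 14-7-0 mice had no wheel through the delay. According to the paper the mice given the delay ran farther while they had the wheel, a difference that was not analysed here and cannot be told apart from the delay. Sedentary mice (0-0-0), trained without any running, are given beside them where a level needs a reference. The question was which genes had moved away from their level directly after running once the wheel had been gone for a week.

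Running raises hippocampal plasticity and memory in rodents, and its effects fade when it stops. Tissue blocks of dorsal hippocampus hold neurons and glia, and the choroid plexus, the epithelium that secretes cerebrospinal fluid, lies against the hippocampus and can come along in a dissection. Because bulk RNA was measured, fewer cells of a type and less RNA per cell cannot be told apart.

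Levels are FPKM (fragments scaled to transcript length and to the mapped fragments of the library), and differences are 14-7-0 minus 14-0-0 on the log2(FPKM + 0.1) scale, which understates the change of low genes. The call rule was an unadjusted p under 0.05 in limma's moderated test. Only the threshold is that of the study's methods, which used Cyber-T, a regularized t-test, for exercise groups against sedentary mice. The relative depth, estimated from the FPKM step of low genes, was 0.0177 in 14-7-0 replicate 4, where 10279 genes were listed at 0 FPKM. In the other 19 libraries it lay between 0.335 and 1.27, with 6243 to 7199 genes at 0. Results were therefore also computed without 14-7-0 replicate 4.

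Of 12994 genes tested, 264 were higher in 14-7-0, which is 2.03% of all genes tested, and 468 were lower, which is 3.6%. By chance 649.7 genes would be called, and the 732 calls exceed that number by little. No gene had an adjusted p under 0.05 in limma (smallest 0.362) or in Cyber-T, which called 158 genes higher and 389 lower at an unadjusted p under 0.05. Without 14-7-0 replicate 4 the counts were 284 higher and 476 lower. The split between directions depended on scaling: 36.1% of calls were higher as deposited, 45.8% after scaling by the median ratio (324 higher, 384 lower) and 50.3% after quantile normalization (378 higher, 374 lower). After adjustment for the choroid plexus score of each library (the mean of its marker genes, entered as a covariate), 130 genes (1.0% of those tested) were higher and 139 (1.07%) were lower. Together these lie below the 649.7 calls that chance would give. The score reached 4.50 in 14-0-0 and 1.55 in 14-7-0, so it overlaps with group and the adjusted test is less able to call a difference. Leaving out single libraries moved the higher count from 194 (without 14-0-0 replicate 1) to 354 (without 14-7-0 replicate 9), and the lower count from 354 (without 14-0-0 replicate 7) to 632 (without 14-0-0 replicate 5).

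The called list members fell mainly in 4 lists. The lists were chosen with earlier results of these data known, and members of a list can move together across libraries. Their shares are therefore not independent evidence. In 14-7-0, 21 of 21 choroid plexus genes and 15 of 22 cholesterol synthesis genes were called lower, beside 3.6% of all genes tested. Of oligodendrocyte genes 8 of 15, and of circadian clock genes 8 of 18, were called higher, beside 2.03%, and 1 clock gene was called lower.

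**Figure D1:**
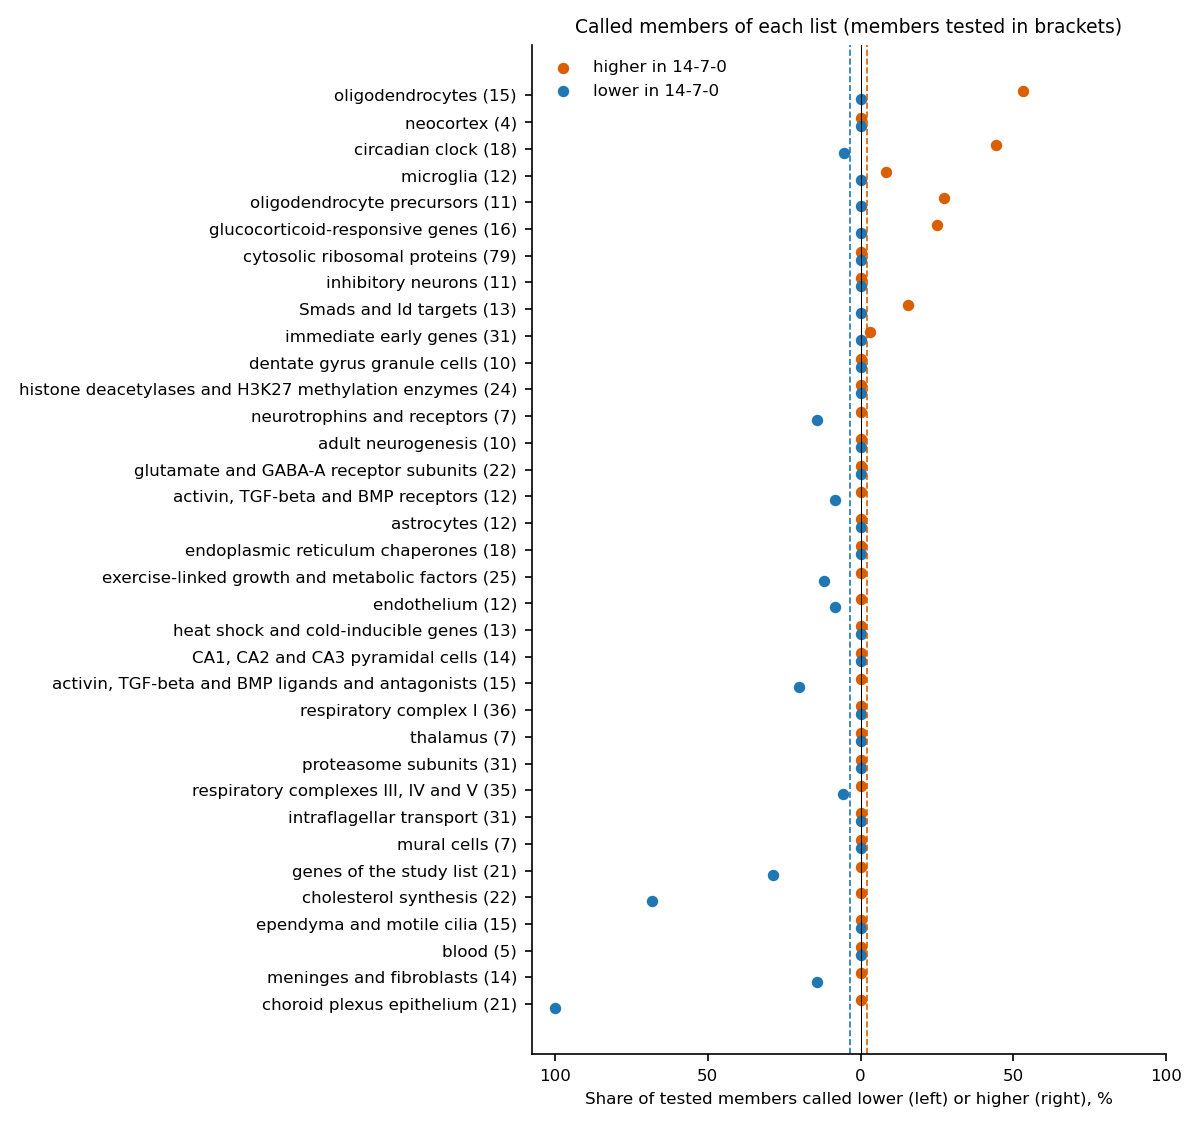
Share of the tested members of each of 35 gene lists that were called higher (orange, right) or lower (blue, left) in 14-7-0, in %, with the number tested in brackets and the shares over all genes (2.03% and 3.6%) as dashed lines. Choroid plexus epithelium and cholesterol synthesis stand out on the left, oligodendrocytes and circadian clock on the right. The lists were chosen with earlier results of these data known.

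Choroid plexus transcripts were lower in 14-7-0. All 21 tested members of the choroid plexus epithelium list, out of 22 listed, were called lower, beside 3.6% of all genes tested, with a median log2 difference of -2.06 against -0.00916 over all genes tested. The 1 FPKM minimum is an average over all 70 libraries, so libraries with much choroid plexus RNA can carry a gene past it. Tmem72, for example, had 17.79 FPKM in 14-0-0 replicate 7 and a median of 0.05153 in 14-7-0. With a minimum of 5 FPKM, 10 members were lower. The members rose and fell together across libraries, so they are not separate pieces of evidence. Ttr, the thyroid hormone carrier transthyretin, had 25.6, 2220 and 15600 FPKM as the lowest, median and highest of the 10 14-0-0 libraries, and 19.1, 72.4 and 2080 in 14-7-0 (log2 difference -3.14, SE 1.15, p = 0.013). The groups overlapped, since 4 libraries of 14-0-0 lay in the range of most 14-7-0 libraries and 14-7-0 replicate 7 was high. Sedentary libraries had 15.5, 74.4 and 344 FPKM of Ttr.

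Other members showed the same split among the 14-0-0 libraries. The potassium channel gene Kcnj13 had a median of 14.1 FPKM in 14-0-0 (0.328 to 87.2) and of 0.603 in 14-7-0 (0 to 9.8). Its log2 difference was -3.21 (SE 1.03, p = 0.00541). The water channel gene Aqp1 had a median of 4.15 FPKM in 14-0-0 (0.148 to 38.0) and of 0.338 in 14-7-0 (0.17 to 3.53). Klotho (Kl), a co-receptor for fibroblast growth factors, had medians of 20.8 and 8.58 FPKM.

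The summed level of the list ran from 99.1 to 18700 FPKM (median 2730) in 14-0-0 and from 108 to 2490 (median 178) in 14-7-0. In the sedentary group it ran from 78.5 to 524 (median 164), and in 14-14-0, after 14 days without a wheel, it was 118 to 25200 (median 2550). Home cage mice, which did not run, ranged from 149 to 17700 (median 244). Without 14-7-0 replicate 4, 20 members were lower with a median of -1.99. Within cohort 1 alone 8 members were lower, and within cohort 2 alone 7, with medians of -1.76 and -2.45. Adjusted for the choroid plexus score, which is built from these same genes, 0 members were lower and 1, Steap1, was higher.

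Markers of neighbouring tissues followed in part. Of 14 tested meninges and fibroblast markers, 2 were lower, beside 3.6% of all genes. They were the growth factor gene Igf2 (log2 difference -1.29, p = 0.0051) and Igfbp2, a binding protein for insulin-like growth factors (-1.41, p = 0.00342). Adjusted for the choroid plexus score these were -0.14 (p = 0.332) and -0.27 (p = 0.204). Of 15 ependymal and motile cilia markers 0 were called, with a median of -0.235. Of 12 endothelial markers 1 was lower, beside the same 3.6%: the VEGF receptor gene Kdr (-0.33, p = 0.00686). No member was called among 7 mural cell or 5 blood markers. For the results below, values adjusted for the choroid plexus score are given for the main lists and for some single genes only. Where none is given, the adjusted difference can be smaller (Cldn11, 0.40 unadjusted and 0.26 adjusted) or larger (Dbp, 0.45 and 0.58). The part of choroid plexus content in these results was not tested otherwise.

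**Figure D2:**
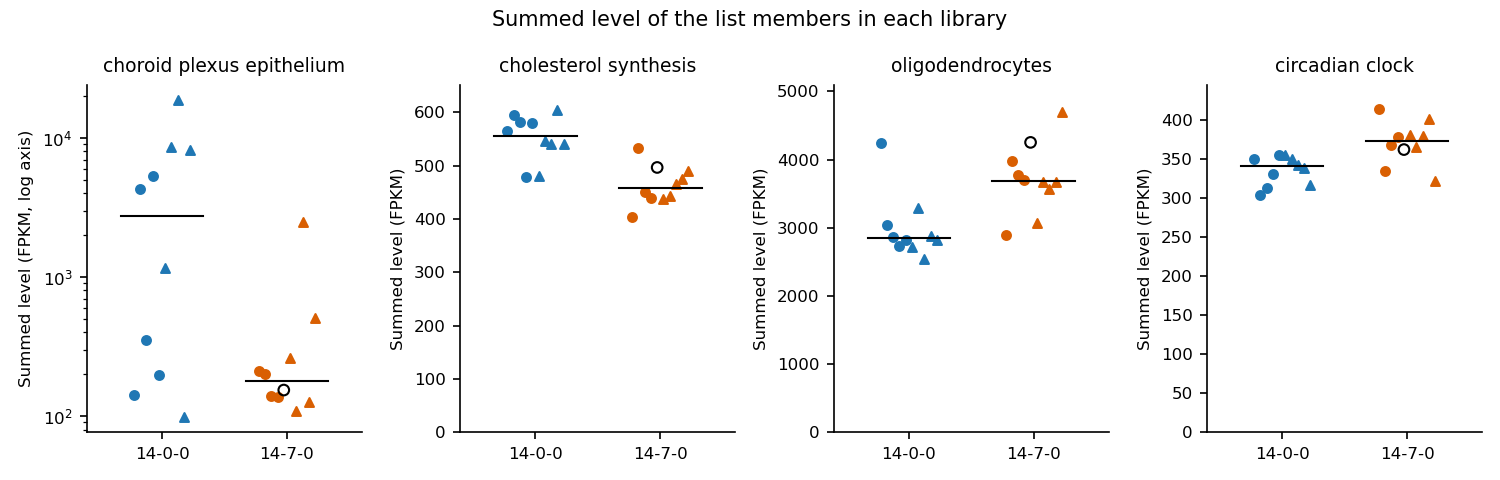
Summed FPKM of the members of 4 lists in each library (circles cohort 1, triangles cohort 2, open circle 14-7-0 replicate 4, line the median; log axis for choroid plexus only). Choroid plexus sums span 99.1 to 18700 FPKM in 14-0-0, cholesterol synthesis sums are lower in 14-7-0, and oligodendrocyte and clock sums are higher, with overlap in every panel.

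Cholesterol is made in brain cells from acetyl-CoA through the mevalonate pathway, and the enzymes are switched on together by the transcription factor SREBP2, which binds sterol regulatory elements when sterols run low. Of 22 cholesterol synthesis genes, all tested, 15 were lower in 14-7-0 and 0 higher, beside 3.6% of all genes. All 22 differences were below 0, with a median of -0.227 and a range of -0.42 to -0.05. The smallest adjusted p in the list was 0.362.

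The promoter of Hmgcs1, which makes HMG-CoA at the entry to the pathway, is shown because it carries the letters of a sterol regulatory element (TCACNCCAC, capitals), at chr13:119690184-119690252 on the plus strand of GRCm38.p6.
Hmgcs1: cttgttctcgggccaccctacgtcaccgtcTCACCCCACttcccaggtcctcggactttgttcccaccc
These letters, searched on both strands over the 250 bases before the start site in the RefSeq promoter table, occurred in 1 of the 16 cholesterol synthesis genes matched there, in 1.04% of all promoters and in 0.999% of those of genes tested.

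Enzymes along the whole pathway were among the members called. Nsdhl, a sterol dehydrogenase of the late steps, had 11.1, 13.1 and 14.7 FPKM as lowest, median and highest in 14-0-0, and 8.32, 9.82 and 13.4 in 14-7-0. Its log2 difference was -0.35 (SE 0.0742, p = 0.000111, adjusted p = 0.362), and 9 of 10 14-7-0 libraries lay below the 14-0-0 median. Msmo1, a sterol methyl oxidase, had 45.3, 62.1 and 73.3 FPKM in 14-0-0 against 38.6, 45.8 and 63.1 in 14-7-0. Its difference was -0.39 (SE 0.0972), and 14-7-0 replicate 1 alone lay above the 14-0-0 median. Idi1, which isomerises the first isoprenoid unit, had 20.4, 28.0 and 36.2 FPKM in 14-0-0 and 17.4, 21.0 and 31.7 in 14-7-0, a difference of -0.42 (SE 0.106).

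Hmgcs1 fell by 0.32. Sqle, squalene epoxidase, fell by 0.28 and Cyp51, a lanosterol demethylase, by 0.29. Other called members were Mvd, Fdps, Fdft1, Tm7sf2, Sc5d, Dhcr7 and Insig1. The regulator Srebf2 itself was not called (-0.05, p = 0.705), nor were Mvk, Pmvk, Lss, Hsd17b7 and Ebp.

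The summed level of the 22 genes was 479 to 605 FPKM (median 555) in 14-0-0, 404 to 533 (median 458) in 14-7-0 and 454 to 593 (median 507) in the sedentary group. The comparisons with sedentary share these libraries and are given side by side only. Nsdhl was 0.31 above sedentary in 14-0-0 (p = 0.000166) and -0.04 in 14-7-0 (p = 0.605). Idi1 was 0.22 (p = 0.0378) and -0.20 (p = 0.0425). Without sedentary replicate 6, left out as an alternative, Idi1 was 0.19 (p = 0.0674) in 14-0-0. The sedentary group was uneven: summed thalamus markers ran from 29.9 to 206 FPKM (median 34.4). Summed dentate gyrus granule cell markers ran from 66.0 to 271 (median 240). Sedentary ranges in the text include all 10 libraries.

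The list count was 16 without 14-7-0 replicate 4 and 15 adjusted for the choroid plexus score (median -0.256). Within cohort 1 alone 10 members were lower (median -0.255), and within cohort 2 alone 8 (median -0.204). Acss2, which makes acetyl-CoA from acetate and is no member, was among the 12 genes of smallest p that were lower (-0.27, SE 0.0641, p = 0.000443).

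**Figure D3:**
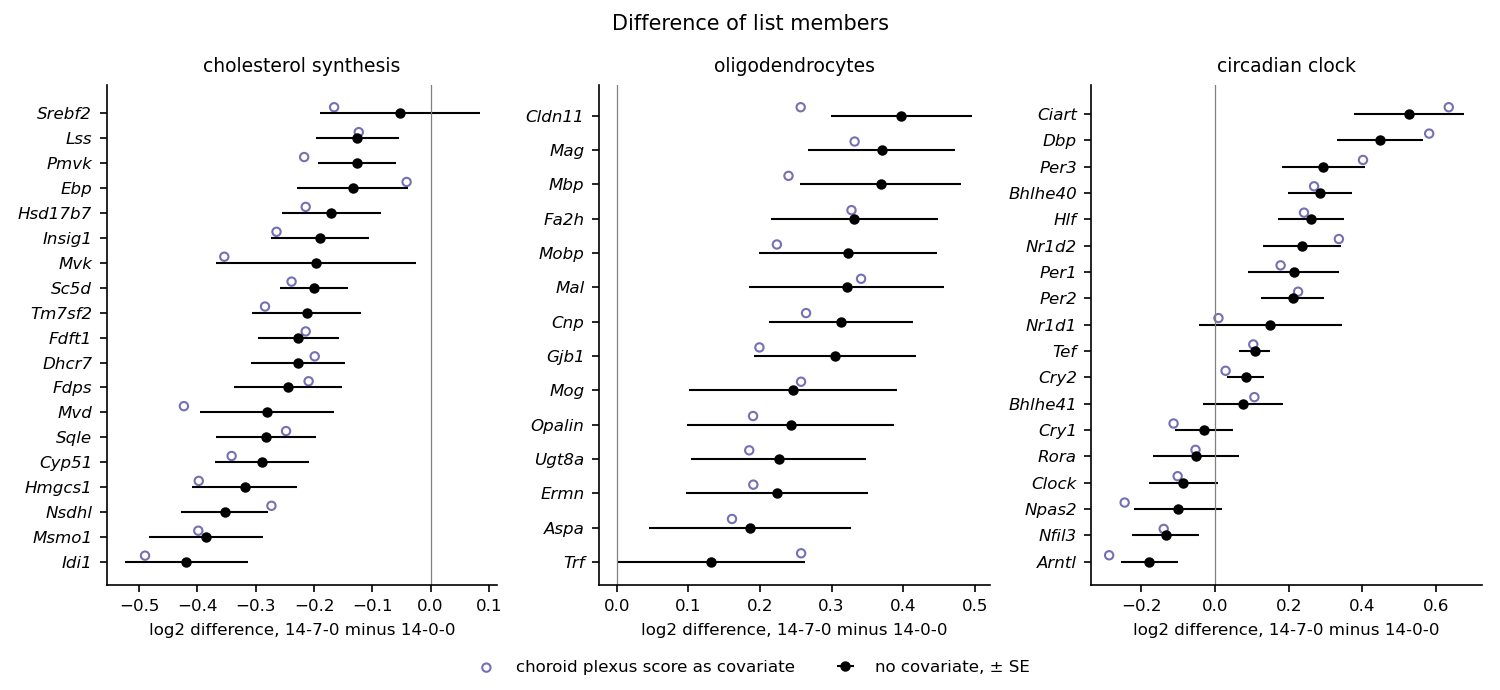
Log2 difference (14-7-0 minus 14-0-0) of tested members of 3 lists without a covariate (black, ± SE) and adjusted for the choroid plexus score (open circles). The cholesterol synthesis genes shown lie below 0 and the oligodendrocyte genes shown above 0, while clock genes run from Arntl at -0.18 to Ciart at 0.53.

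Oligodendrocytes wrap axons in myelin, and their transcripts code for the proteins and lipids of that sheath. Of 15 oligodendrocyte genes, 8 were higher in 14-7-0 and 0 lower, beside 2.03% of all genes, with a median of 0.304 and all 15 differences above 0. Cldn11, the claudin of myelin tight junctions, had 67.9, 80.4 and 120 FPKM in 14-0-0 and 83.0, 112 and 148 in 14-7-0 (log2 difference 0.40, SE 0.0985, p = 0.000621). All 10 14-7-0 libraries lay above the 14-0-0 median, but 14-0-0 replicate 0 exceeded all but 1 of them. Mag, an adhesion protein of myelin facing the axon, had 52.4, 63.2 and 92.0 FPKM in 14-0-0 and 61.0, 81.6 and 106 in 14-7-0 (0.37, SE 0.102). Mbp, myelin basic protein, rose by 0.37 and Cnp by 0.31. Mobp, Fa2h, Gjb1 and Mal were also called.

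Genes of the oligodendrocyte lineage were among the leading calls. Of 11 precursor markers 3 were higher, beside 2.03% of all genes, with a median of 0.107 and 3 differences below 0. The 3 called were the transcription factors Olig2 (0.35, p = 0.00175) and Sox10 (0.31, p = 0.0317, and 0.25, p = 0.0654, without 14-7-0 replicate 4), and Enpp6, a marker of newly formed oligodendrocytes (0.40, p = 0.0168). The count was 2 without 14-7-0 replicate 4 and 2 adjusted for the choroid plexus score. Sox8, a relative of Sox10 that is in no list, rose by 0.26 (SE 0.0646), from a median of 10.6 FPKM to 12.8.

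These calls depended on the samples and on the fit. Within cohort 1 alone 0 of the 15 oligodendrocyte genes were called (median 0.219) and within cohort 2 alone 10 were (median 0.385). Adjusted for the choroid plexus score 4 were called (median 0.243), and 1 in a joint fit of all 7 groups. Without 14-7-0 replicate 4, 8 were called (median 0.264). The summed level was 2540 to 4240 FPKM (median 2850) in 14-0-0, 2900 to 4700 (median 3690) in 14-7-0 and 1990 to 7990 (median 3650) in the sedentary group. Mag was -0.37 against sedentary in 14-0-0 (p = 0.0588) and -0.003 in 14-7-0 (p = 0.987), and neither passed the threshold. Without sedentary replicate 6 these were -0.23 (p = 0.106) and 0.14 (p = 0.323).

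The circadian clock runs on a loop in which the activators ARNTL and CLOCK bind E-boxes and drive their own repressors (Per, Cry, Nr1d and Ciart genes) and output factors such as Dbp, Tef and Hlf, which bind D-boxes. Of 18 tested clock genes, out of 19 listed, 8 were higher in 14-7-0 and 1 was lower, beside 2.03% and 3.6% of all genes, with a median of 0.129. Tissue was taken within a window of several hours per day according to the study's methods, and the clock time of each mouse was not analysed here.

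The stretches below are shown because they hold every match among the clock genes that were called, with E-boxes (CACGTG) and D-boxes (TTATGNAA) in capitals. Ciart lies at chr3:95882237-95882374 on the minus strand, Per3 at chr4:151044786-151044900 on the minus strand and Tef at chr15:81802516-81802581 on the plus strand of GRCm38.p6.
Ciart: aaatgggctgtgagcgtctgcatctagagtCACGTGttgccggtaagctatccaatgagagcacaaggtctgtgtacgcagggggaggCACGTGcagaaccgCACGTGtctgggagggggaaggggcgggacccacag
Per3: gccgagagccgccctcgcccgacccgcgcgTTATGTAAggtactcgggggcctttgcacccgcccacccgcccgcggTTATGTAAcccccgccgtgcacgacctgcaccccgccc
Tef: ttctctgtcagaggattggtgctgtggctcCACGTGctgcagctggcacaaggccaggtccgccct
Of 16 clock genes matched to a promoter, 5 held an E-box within the 250 bases before the start site and 2 a D-box, searched on both strands. All RefSeq promoters held them in 6.05% and 3.23% of cases, and promoters of genes tested in 8.61% and 1.74%.

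Among the repressors and outputs, Ciart had 2.2, 3.02 and 5.18 FPKM in 14-0-0 and 3.18, 4.51 and 6.55 in 14-7-0, a difference of 0.53 (SE 0.15, p = 0.0021). Dbp, a PAR bZIP output factor, had 8.09, 9.9 and 13.9 FPKM in 14-0-0 and 10.7, 14.6 and 18.4 in 14-7-0 (0.45, SE 0.117, p = 0.001). For both genes all 10 14-7-0 libraries lay above the 14-0-0 median. Per3 rose by 0.29, Per2 by 0.21, Bhlhe40 by 0.28, Hlf by 0.26, Nr1d2 by 0.24 and Tef by 0.11. On the activator side, Arntl fell by 0.18 (p = 0.0312), with medians of 15.8 and 13.2 FPKM, and Clock (-0.09) and Npas2 (-0.10) were not called. Per1 (0.21, p = 0.1), Nr1d1, Cry1 and Cry2 were not called either.

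Set beside sedentary mice, Dbp was -0.49 in 14-0-0 (p = 0.000665) and -0.04 in 14-7-0 (p = 0.741). Ciart was -0.71 (p = 0.000153) and -0.18 (p = 0.185), and Arntl was 0.36 (p = 0.00058) and 0.18 (p = 0.0394; without sedentary replicate 6, 0.12, p = 0.069). The clock count was 9 higher and 2 lower without 14-7-0 replicate 4, and 7 higher and 1 lower adjusted for the choroid plexus score. Within cohort 1 alone 4 members were higher and 0 lower, and within cohort 2 alone 7 were higher and 1 lower.

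Among single genes, Zfp180, a zinc finger gene at chr7:24081877-24107709, was the only one whose groups did not overlap. It had 13.4 FPKM as the lowest, 15.4 as the median and 15.95 as the highest value in 14-0-0, and 15.96, 17.2 and 20.1 in 14-7-0 (log2 difference 0.24, SE 0.0471, p = 4.79e-05, adjusted p = 0.362). Sedentary libraries had 12.8, 16.9 and 17.9 FPKM and overlapped both. The other higher genes of smallest p included Tmem255a (0.35), Kcnip2, a partner of Kv4 potassium channels (0.24), Gid4 (0.21) and Epb4.1l2 (0.18). Also among them were Camkk1, a kinase upstream of calcium/calmodulin-dependent kinases (0.19), and 9630013A20Rik (0.73).

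Among lower genes, Pgam2, the muscle form of the glycolytic enzyme phosphoglycerate mutase (chr11:5801637-5803796), had 8.7, 12.1 and 14.9 FPKM in 14-0-0 and 5.06, 7.77 and 10.1 in 14-7-0. Its log2 difference was -0.63 (SE 0.125, adjusted p = 0.362), and its sedentary median was 9.0 FPKM. Mylk3, a myosin light chain kinase known from heart (chr8:85324928-85386340), had 1.65, 3.01 and 3.44 FPKM in 14-0-0 and 0.94, 1.56 and 2.76 in 14-7-0 (-0.81, SE 0.168). Nhlh1, a neuronal basic helix-loop-helix factor, had medians of 1.66 and 1.03 FPKM (-0.59, SE 0.127). For Pgam2, Mylk3 and Nhlh1 all 10 14-7-0 libraries lay below the 14-0-0 median, and the differences adjusted for the choroid plexus score were -0.70, -0.93 and -0.66. Rbpms2, Wbscr27, Pnp and Pon2 were the other lower genes of smallest p, at -0.49, -0.38, -0.27 and -0.20.

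Set beside sedentary mice, Mylk3 was 1.38 in 14-0-0 (p = 0.000404) and 0.58 in 14-7-0 (p = 0.103), and Pgam2 was 0.40 (p = 0.00147) and -0.23 (p = 0.0491). Without sedentary replicate 6 these were 1.11 and 0.30 for Mylk3, and 0.40 and -0.23 (p = 0.0557) for Pgam2.

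The called genes of largest fold included several whose calls rested on few libraries. Among higher genes these were Mir8091 (log2 difference 4.34), Snora44 (3.76), Gdf1 (1.43), Eps8l1 (0.90) and 9630013A20Rik. Mir8091 was listed at 0 in 6 of the 10 14-0-0 libraries and in 1 of 14-7-0, replicate 4. Snora44 was listed at 0 in 8 of 14-0-0 and 4 of 14-7-0. Gdf1, a growth factor of the TGF-beta family, had 21.9, 19.6 and 17.1 FPKM in 3 14-7-0 libraries and 0.62 to 1.42 in the other 7, and without 14-7-0 replicate 4, one of the 3, it was no longer called (p = 0.0971). Adjusted for the choroid plexus score, Snora44 (1.75, p = 0.397), Gdf1 (1.65, p = 0.0562) and Eps8l1 (0.17, p = 0.648) were not called.

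Among lower genes they were Snora41 (-4.36), Kcnj13, the beta-defensin gene Defb11 (-3.20), Mir3473e and Ttr. Snora41 was listed at 0 in 5 libraries of 14-0-0 and 9 of 14-7-0, and its difference was -8.69 in cohort 1 and -0.03 in cohort 2. Mir3473e was listed at 0 in 7 libraries of 14-0-0 and in all 10 of 14-7-0. Neither Snora41 (p = 0.0619) nor Mir3473e (p = 0.0614) was called without 14-7-0 replicate 4. Defb11 had medians of 9.93 and 0.119 FPKM, and adjusted for the choroid plexus score its difference was -0.10 (p = 0.87).

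**Figure D4:**
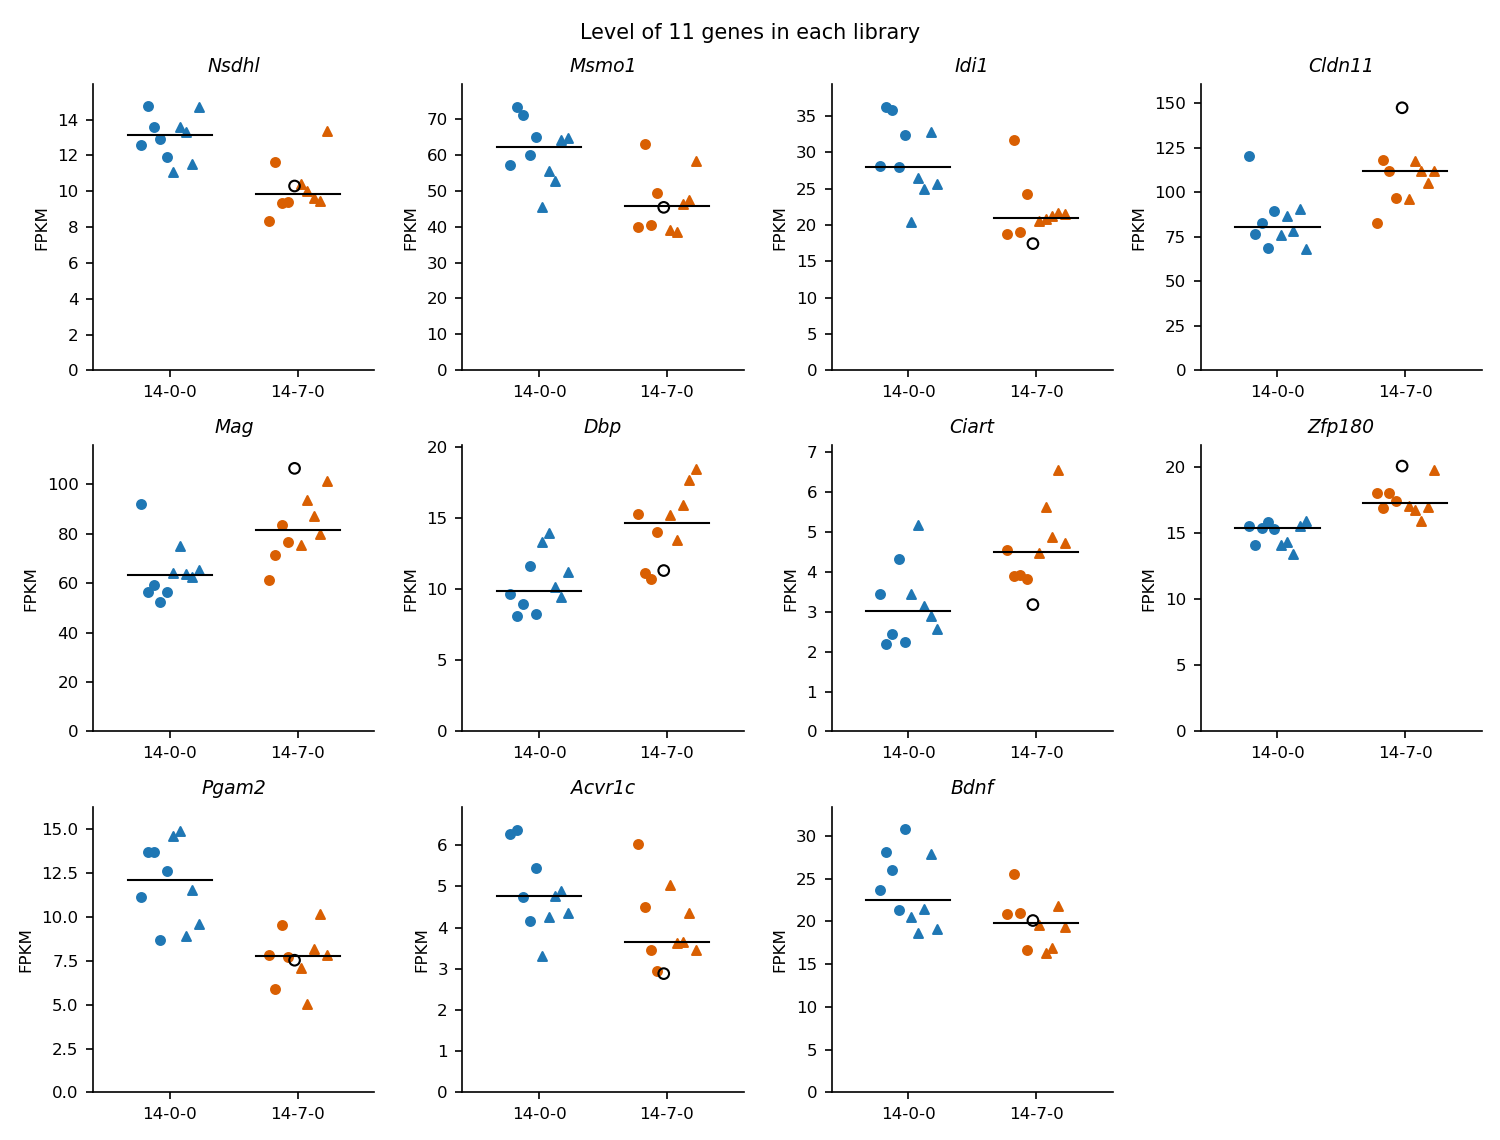
FPKM of 11 genes in each library (circles cohort 1, triangles cohort 2, open circle 14-7-0 replicate 4, line the median; linear axes from 0). Zfp180 alone shows no overlap, with 15.95 as the highest 14-0-0 value and 15.96 as the lowest 14-7-0 value.

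Acvr1c codes for the type I receptor ALK7 of the activin and TGF-beta family, which signals through Smad proteins, and Bdnf for the neurotrophin most tied to running. Acvr1c had 3.3, 4.76 and 6.37 FPKM in 14-0-0, 2.88, 3.65 and 6.02 in 14-7-0 and 1.3, 3.76 and 4.64 in the sedentary group. It was lower in 14-7-0 (-0.29, SE 0.133, p = 0.0433), in 8 of 10 libraries against the 14-0-0 median. Without 14-7-0 replicate 4 its difference was -0.24 and no longer called, and adjusted for the choroid plexus score it was -0.31 (p = 0.0664). Within cohort 1 it was -0.47 and within cohort 2 -0.10, and the test of that difference gave p = 0.161. Bdnf had 18.7, 22.5 and 30.8 FPKM in 14-0-0 and 16.3, 19.9 and 25.6 in 14-7-0. It was lower in 14-7-0 (-0.25, SE 0.0983, p = 0.018), and its difference adjusted for the score was -0.39 (p = 0.00145).

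The study's own list of 21 genes, all tested here, was chosen on these libraries, so its direction is not independent evidence. Of these, 6 were lower, beside 3.6% of all genes, and 0 higher (median -0.0943): Acvr1c, Bdnf, Necab3 (-0.20), Rragd (-0.17), Sprn (-0.11) and Synpr (-0.21). Without 14-7-0 replicate 4, 4 were called. Of the 21, 5 were called lower in cohort 1 alone (median -0.133). In cohort 2 alone 0 were called (median -0.0814), so neither Acvr1c nor Bdnf was called there. Of 12 activin, TGF-beta and BMP receptors, Acvr1c was the only call. Of 15 ligands and antagonists 3 were lower, beside the same 3.6%: Bmp6 (-0.75), Gdf11 (-0.20) and Fstl1 (-0.15). Adjusted for the choroid plexus score 0 were. Of 13 Smads and Id targets 2 were higher, beside 2.03% of all genes: the signal carrier Smad1 (0.20) and the inhibitor Smad7 (0.24). Adjusted for the score 1 was, and the list median went from 0.0548 to 0.00961. Of 7 neurotrophins and receptors Bdnf was the only call.

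Of 31 immediate early genes, 1 was higher, beside 2.03% of all genes: Egr1 (0.26, p = 0.0203). It had 32.1, 47.0 and 60.7 FPKM in 14-0-0 and 45.6, 53.7 and 63.0 in 14-7-0. Adjusted for the choroid plexus score its difference was 0.19 (p = 0.137). Of 16 glucocorticoid-responsive genes 4 were higher, beside 2.03% of all genes: the chaperone gene Fkbp5 (0.14), Tsc22d3 (0.14), the metallothionein Mt2 (0.57) and Arrdc2 (0.26). Without 14-7-0 replicate 4, 2 were called. No member was called among 18 endoplasmic reticulum chaperones or 13 heat shock and cold-inducible genes.

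Energy and housekeeping genes gave few calls. Of 25 exercise-linked growth and metabolic factors 3 were lower, beside 3.6% of all genes. They were Ldha, lactate dehydrogenase A (-0.13), Oxct1, which starts ketone body use (-0.13), and Gys1, glycogen synthase (-0.26). The count was 1 adjusted for the choroid plexus score, 0 in cohort 1 alone and 3 in cohort 2 alone. Of 35 subunits of respiratory complexes III, IV and V 2 were lower, beside the same 3.6%: Cox7b (-0.22) and Atp5g1 (-0.27). Of 36 complex I subunits, 79 ribosomal proteins, 31 proteasome subunits and 31 intraflagellar transport genes, 0 were called, with medians of -0.0491, 0.0628, -0.0552 and -0.0738.

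Neuronal and other glial markers gave almost no call. Of 12 microglial markers 1 was higher, beside 2.03% of all genes: the receptor gene Csf1r (0.16). All 12 differences were above 0. No member was called among 12 astrocyte, 10 dentate gyrus granule cell, 14 CA pyramidal cell, 11 inhibitory neuron, 7 thalamus or 4 neocortex markers, and their medians lay between -0.0525 and 0.136. Likewise 0 were called of 10 adult neurogenesis genes, 24 histone deacetylases and H3K27 methylation enzymes, and 22 glutamate and GABA-A receptor subunits. A p above the threshold does not show that these genes were alike in both groups.

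The test of a difference between harvest cohorts had an unadjusted p under 0.05 in 417 genes, which is 3.21% of genes tested and fewer than the 649.7 that chance would give, and in 0 after adjustment by limma (smallest adjusted p 0.785). Each cohort alone called fewer genes lower than all libraries, 242 in cohort 1 and 350 in cohort 2, with 232 and 273 higher.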

How the data were processed

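Poly-A RNA of the dorsal hippocampus was sequenced as single 50 bp reads. The authors aligned reads with ELAND and Bowtie, kept unique alignments with at most 2 mismatches, and deposited FPKM values from the Tuxedo protocol; the submitters' processing notes name Bowtie, Cuffnorm and mm10, without versions. Counts per gene were not used here, and read totals in the supplement are not tied to sample titles, so depth was estimated only relative to sedentary replicate 0. Alternatives are given at the end. All 70 columns matched a sample title.

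Of 24346 genes, 12994 reached an average of 1 FPKM across the 70 libraries and were tested on log2(FPKM + 0.1) with limma 3.58.1 under R 4.3.3 (two-sided moderated test, trend, 20 libraries, no covariates), with Benjamini-Hochberg adjustment over all of them. The choroid plexus score is the mean over 21 marker genes of log2 values centred per gene. Labels do not tie mice to litters, so p-values measure the spread between mice sampled.

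The comparison and the gene lists were chosen with earlier results of these data known. Genes are named if among the 12 of smallest p or the 5 of largest fold in each direction, in the study's list, called in a list or among its 4 most abundant members, or without overlap. Other uncalled members are named only to account for all genes of a main list. Running distance, behavior and RT-qPCR were not analysed here, and a few list members are counted but not reported here by name. Gene positions are from RefSeq GRCm38.p6. Figures used matplotlib 3.10.9.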

Additional observations from a re-analysis of the deposited data

Results flagged for a closer look

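In each group of 10, a library was marked when its gap to the nearest other exceeded Dixon's limit. On log2 values, 17 of 154 groups held such a library, against 7.7 expected at 1 in 20. On FPKM as deposited the same rule marked 45 groups. The log2 scale, which is the scale of the fits, was chosen after the 45 had been seen, so the smaller number is not an independent count.

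On the log2 scale, 14-7-0 replicate 7 was highest for the summed choroid plexus list (2493 FPKM, next 509.1) and for Slc4a5 (2.474), F5 (2.441), Enpp2 (296.7), Trpv4 (2.067), Tmem72 (1.071) and Ace (7.676 FPKM). In 14-0-0, replicate 0 was highest for Cldn11 (120.2 FPKM) and for the summed oligodendrocyte list (4240 FPKM, next 3287). Leaving it out gave 11 called oligodendrocyte genes in place of 8.

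The shallow 14-7-0 replicate 4 was marked for its relative depth (0.0177) and genes at 0 (10279). It was lowest for Rbpms2 (0.7539), Sostdc1 (0.0) and Nr1d2 (14.59) and highest for Mvd (10.72 FPKM). In 14-7-0, replicate 9 was highest for Dhcr7 (18.17 FPKM), and in 14-0-0, replicate 1 was lowest for Bhlhe40 (27.4 FPKM). For 71 genes, limma's test of whether the difference between groups depended on cohort was looked up. Of these, 2 had an unadjusted p under 0.05, and 0 after adjustment over them.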

How the results depend on the processing

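The direction of the 4 main lists held under the alternatives run, except for choroid plexus genes adjusted for their own score. Adjusted for the choroid plexus score, 130 genes were higher and 139 lower, and the counts of called members were 0 for choroid plexus and 4 for oligodendrocytes; without 14-7-0 replicate 4 as well (added after the data were seen) these were 169, 205, 0 and 3. Under that adjustment 10 choroid plexus genes turned to a positive log2 difference: Ttr 0.145, Kl 0.126, Clic6 0.105, Aqp1 0.298, Slc4a5 0.172, Enpp2 0.109, Slc13a4 0.104, Trpv4 0.0196, Wfikkn2 0.023 and Steap1 0.525. The score is built from these genes. Cyber-T called 158 genes higher and 389 lower. A minimum of 5 FPKM gave 267 lower genes and 10 choroid plexus members, and no filter gave 864 lower genes, with fewer or more genes tested. A p under 0.01 gave 69 higher and 105 lower genes, 9 choroid plexus, 5 oligodendrocyte, 4 clock and 10 cholesterol synthesis members. Cohort 1 alone, with 5 libraries per group, gave 242 lower genes, 8 choroid plexus, 0 oligodendrocyte and 4 clock members; cohort 2 alone gave 7 choroid plexus and 8 cholesterol synthesis members. A joint fit of 7 groups gave 1 oligodendrocyte member; the cause was not tested.

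Leaving out each of the 20 libraries (added after the data were seen, other than 14-7-0 replicate 4) gave 194 to 354 higher and 354 to 632 lower genes, 19 to 21 choroid plexus, 12 to 16 cholesterol synthesis, 7 to 11 oligodendrocyte and 7 to 9 clock members. The 417 genes whose difference between groups depended on cohort, at an unadjusted p under 0.05 in limma, became 296 without 14-7-0 replicate 4.

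With a replicate block, 307 genes were higher and 592 lower, and of clock genes 9 were higher and 0 lower. With the replicate block and the choroid plexus score together, 112 were higher and 218 lower, with 1 choroid plexus and 0 oligodendrocyte members. The labels do not say that a number marks a shared animal or day; same-numbered libraries correlated above 0.1 in 6 of 10 pairs (-0.0831 to 0.441), and 4 of 10 14-7-0 libraries correlated best with their own number, so the numbers were not taken as pairs.

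For 71 named genes under 14 alternatives, 855 values kept their direction and side of the threshold, 110 kept only the direction and 10 reversed, those above. Counts per gene were not used here, so counting error is not stated.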

Other observations

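Without the filter on low values, 1 gene had an adjusted p under 0.05 in limma: Pmp2, which codes for a lipid-binding protein of peripheral myelin (log2 difference -0.78, adjusted p = 0.0389). It is named after its value was seen and lies far below the 1 FPKM minimum, at 0.0676 to 0.192 FPKM in 14-0-0 and 0 to 0.06 in 14-7-0, where 5 libraries were listed at 0.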
